A study of Homo sapiens with 15 samples.

Results

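The 42 genes described here encode proteins of DNA replication and cell division, 19 of them S-phase genes and 23 mitotic genes, and were chosen by name from the 60675 genes of a deposited count table for HT1080 cells, an established human fibrosarcoma line. All 42 were found by their symbols, and all 42 passed the filter on low counts that left 17780 genes for testing. There were 4 groups, and untreated wild-type cells were not analysed here. WT TMP195 cells were wild type and had been given 1 µM TMP195, an inhibitor of class IIa deacetylases, for 2 days (3 libraries). KDAC7 H709A cells carried that substitution in their own KDAC7, the class IIa lysine deacetylase also called HDAC7 (4 libraries). KDAC4 H803A cells (3 libraries with counts of 4 samples) and KDAC4 H976Y cells (4 libraries) carried a substitution in their own KDAC4, also called HDAC4. The variant cells were untreated; the design text speaks of inactivated or enhanced KDACs without saying which substitution is which. The labels do not say whether a group's replicates are separate cultures or clones, so a p-value here speaks only for the spread among these libraries, which may be technical.

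Before S phase, the MCM2 to MCM7 helicase is loaded onto replication origins by CDC6 and CDT1, and cyclin E with CDK2 then starts DNA synthesis. E2F transcription factors raise the genes of this step when the retinoblastoma protein is phosphorylated. Later in the cycle the MuvB complex with MYBL2 and FOXM1, bound at cell cycle homology regions, and NF-Y, bound at CCAAT boxes, raise the genes for cyclin B, CDK1, the PLK1 and Aurora kinases, spindle motors and kinetochore proteins, whose products carry cells through mitosis. Most of these genes are transcribed mainly in dividing cells; in bulk RNA fewer cells in a phase and less RNA per cell cannot be told apart.

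Promoter sequence is shown for 4 of the genes that differed between groups, because it carries the elements by which the S-phase and mitotic groups are commonly told apart. Windows of 250 bases before to 50 after a start site were taken from RefSeq on GRCh38.p14, and 15 of the 19 S-phase genes and 19 of the 23 mitotic genes were matched, with 19 and 27 windows. An E2F element (TTTCGCGC or TTTGGCGC, both strands) stood in 8 of 19 S-phase windows (42.1%), in 3 of 27 mitotic windows (11.1%) and in 1.15% of all 35116 windows. A cell cycle homology region (CHR, TTTGAA or TTCGAA, both strands) stood in 2 of 19 S-phase windows (10.5%), in 16 of 27 mitotic windows (59.3%) and in 16.4% of all windows. A CCAAT box (CCAAT, both strands) stood in 78.9% of S-phase, 77.8% of mitotic and 34.6% of all windows. Each window below reads 5′ to 3′ on the gene's strand with these elements in capitals, a CCAAT box on the other strand being written as its reverse complement. MCM3 holds an E2F element that starts at -4 from the start site (chr6:52284693-52284992, minus strand). PLK1 holds a CHR at -29 and a CCAAT box at -73 (chr16:23678639-23678938, plus strand). MKI67 holds CHRs at -47 and -29, the second overlapping a CCAAT box (chr10:128126374-128126673, minus strand), and CENPF holds a CHR at +40 (chr1:214602945-214603244, plus strand). No element of these spellings lies in the windows of CDT1 and CENPE. A match describes the letters in a window and is not evidence of binding.
MCM3: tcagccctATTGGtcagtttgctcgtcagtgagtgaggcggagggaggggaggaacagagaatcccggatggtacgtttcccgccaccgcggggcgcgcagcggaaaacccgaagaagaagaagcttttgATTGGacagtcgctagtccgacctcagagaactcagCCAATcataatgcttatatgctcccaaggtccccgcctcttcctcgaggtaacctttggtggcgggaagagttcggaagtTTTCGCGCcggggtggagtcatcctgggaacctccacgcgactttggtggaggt
PLK1: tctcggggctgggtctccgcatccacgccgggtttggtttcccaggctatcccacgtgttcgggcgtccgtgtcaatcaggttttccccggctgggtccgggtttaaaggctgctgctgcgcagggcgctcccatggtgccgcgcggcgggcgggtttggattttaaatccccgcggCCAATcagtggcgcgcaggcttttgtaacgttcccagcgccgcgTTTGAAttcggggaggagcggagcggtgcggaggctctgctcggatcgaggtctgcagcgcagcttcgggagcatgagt
MKI67: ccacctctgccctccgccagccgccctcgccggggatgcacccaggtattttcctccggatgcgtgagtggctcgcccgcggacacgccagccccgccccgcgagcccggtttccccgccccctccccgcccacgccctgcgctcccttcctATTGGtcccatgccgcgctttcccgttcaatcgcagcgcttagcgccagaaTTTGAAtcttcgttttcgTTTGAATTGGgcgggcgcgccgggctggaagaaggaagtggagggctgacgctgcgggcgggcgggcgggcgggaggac
CENPF: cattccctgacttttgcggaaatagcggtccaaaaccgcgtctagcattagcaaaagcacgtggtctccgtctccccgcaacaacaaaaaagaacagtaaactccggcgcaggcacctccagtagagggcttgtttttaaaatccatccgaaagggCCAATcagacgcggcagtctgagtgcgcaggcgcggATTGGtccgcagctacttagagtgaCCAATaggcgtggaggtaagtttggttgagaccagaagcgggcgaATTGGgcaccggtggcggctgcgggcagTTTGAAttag

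Per length, the genes covered a wide range of levels. Among S-phase genes the median over 14 libraries lay between 2.75 TPM for CCNE1 (cyclin E1) and 82.5 TPM for MCM4, a helicase subunit. Among mitotic genes it lay between 3.85 TPM for CDC25C, a phosphatase that activates CDK1, and 62.6 TPM for AURKB, the kinase of the chromosomal passenger complex. The lowest count of any member in any library was 27, for CCNE1. The helicase subunits were not level with each other, at 76.9 TPM for MCM7, 43.2 for MCM2, 41.7 for MCM3, 38.0 for MCM5 and 10.6 for MCM6. Across libraries the highest CPM (counts scaled to a common library size) exceeded the lowest by 1.50-fold for POLA1, the DNA polymerase alpha catalytic subunit, to 3.81-fold for RRM1, a ribonucleotide reductase subunit, among S-phase genes. The same ratio ran from 1.65-fold for BUB1B, a spindle checkpoint protein, to 5.96-fold for CENPE, a kinetochore motor, among mitotic genes.

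Libraries held 6151383 to 24297487 counts, and 2 of them lay far from the other libraries of their labels over these genes. The library labelled KDAC4 H803A 1 was closest to KDAC7 H709A 4, with a median difference of 0.04 (log2) over the 42 members, the smallest of all 91 pairs of libraries; from the other KDAC4 H803A libraries it differed by 0.80 and 0.96. The library labelled KDAC7 H709A 1 was closest to KDAC4 H803A 3, at 0.19, and differed from its own group by 0.53 to 0.84. By the same measure KDAC4 H976Y 4 was closest to KDAC7 H709A 2, at 0.29, against 0.43 to 0.55 from its own group, and KDAC7 H709A 3 was closest to KDAC4 H976Y 2, at 0.19, against 0.24 or more. The labels were kept, and the calls are given with all libraries and again without KDAC4 H803A 1 and KDAC7 H709A 1. Without KDAC4 H976Y 4 alone, 5 members were called in WT TMP195 against KDAC4 H976Y, 0 in KDAC7 H709A against KDAC4 H976Y and 4 in KDAC4 H803A against KDAC4 H976Y. Of all 17695 genes tested in that fit, 2868 (16.2%), 2296 and 2761 (15.6%) were called, in the same order. Gene counts do not read the substituted codons, so they cannot check which variant a library carries. The libraries also differed in the level of GC-rich genes (upper 25% by GC content) minus GC-poor genes (lower 25%). That difference was 0.35 to 0.53 (log2) in WT TMP195, 1.19 in KDAC7 H709A 1 and -0.48 to -1.11 in the other KDAC7 H709A libraries, -1.08 in KDAC4 H803A 1 and 1.29 and 1.36 in the other KDAC4 H803A libraries, and -0.27 to -0.51 in KDAC4 H976Y. Mitochondrial ribosomal RNA took 16.1 to 31.5% of counts in KDAC4 H976Y libraries and at most 0.345% elsewhere. Mesenchymal markers such as VIM and FN1 were all above 1 CPM (8 of 8), summing to 3875 to 9542 CPM per library, and epithelial markers summed to 1.84 to 12.9 CPM. Blood markers summed to at most 0.422 CPM, with PTPRC and HBB at 0 in every library.

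Seen gene by gene, the libraries fell into blocks that cut across the labels. Each gene's log2 CPM was set against its own mean over the 14 libraries. In KDAC7 H709A 4 and KDAC4 H803A 1, 20 of 23 mitotic genes lay above their mean in each, with medians of 0.55 and 0.52. In KDAC4 H803A 2 and 3 only 4 and 3 of 23 did, with medians of -0.57 and -0.69, and in KDAC7 H709A 1 it was 6 of 23, with a median of -0.49. S-phase genes moved the same way by less, with medians of 0.23 and 0.22 in KDAC7 H709A 4 and KDAC4 H803A 1, -0.33 in KDAC7 H709A 1, and -0.24 and -0.17 in KDAC4 H803A 2 and 3. In the 3 WT TMP195 libraries S-phase genes stood above mitotic genes, by 0.09, 0.26 and 0.23 between the medians. In all 4 KDAC4 H976Y libraries they stood below, by 0.12 to 0.16. One KDAC4 H976Y library, replicate 4, with the fewest counts and the largest mitochondrial share, had 0 of 19 S-phase genes above their mean, against 13 to 16 in the other KDAC4 H976Y libraries.

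**Figure D1:**
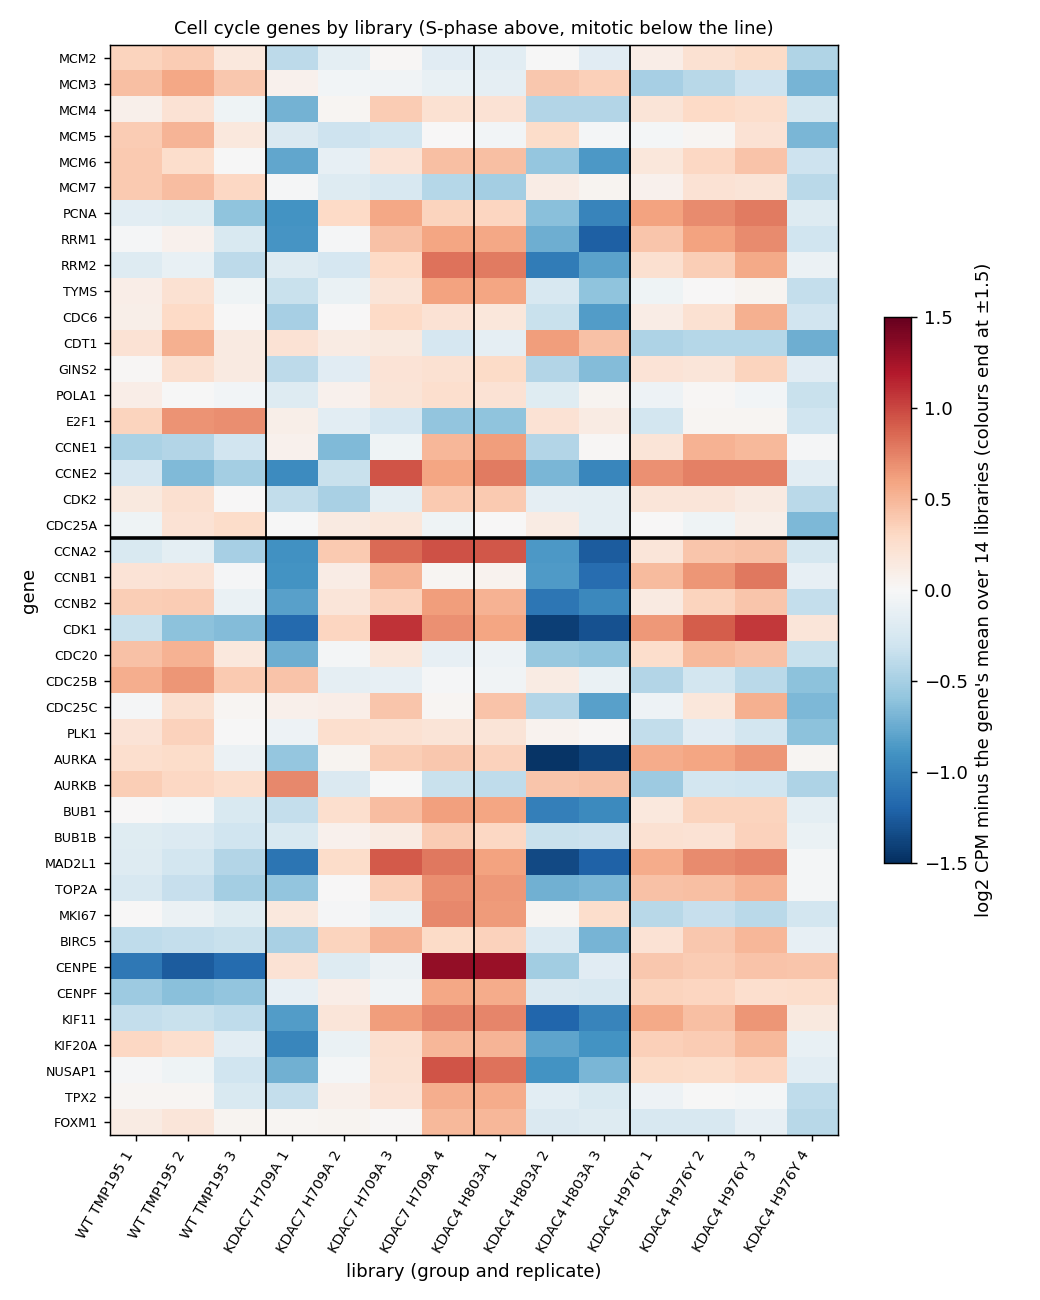
Log2 CPM of each of the 42 genes minus its mean over 14 libraries, by library (columns, group and replicate) and gene (rows, S-phase genes above the line). Red is above and blue below the gene's mean, and the columns of KDAC7 H709A 4 and KDAC4 H803A 1 look alike, with 20 of 23 mitotic genes above their mean in both.

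Base composition moved with these values. S-phase genes have a median GC content of 49.8%, from 36.9% (CCNE2) to 64.9% (CDT1), and mitotic genes one of 44.3%, from 35.3% (CENPE) to 59.3% (CDC25B). Across the 42 genes of 1 library, which share that library's preparation, the deviation correlated with GC content at Pearson's r of 0.56 to 0.79 in the WT TMP195 libraries, KDAC7 H709A 1 and KDAC4 H803A 2 and 3, and of -0.27 to -0.78 in the other libraries. After trends with GC content and length over all genes were taken out, the S-phase and mitotic medians were 0.07 to 0.22 and -0.05 to 0.12 in WT TMP195 libraries. They were -0.44 and -0.33 in KDAC7 H709A 1, -0.34 and -0.41 in KDAC4 H803A 2, and -0.53 and -0.60 in KDAC4 H803A 3. In KDAC4 H976Y replicates 1 to 3 the mitotic median, 0.04 to 0.19, then no longer stood above the S-phase median, 0.09 to 0.28, while in replicate 4 it still did, at -0.21 against -0.34. Both groups were thus below 0 in KDAC7 H709A 1, KDAC4 H803A 2 and 3 and KDAC4 H976Y 4 before and after that correction.

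**Figure D2:**
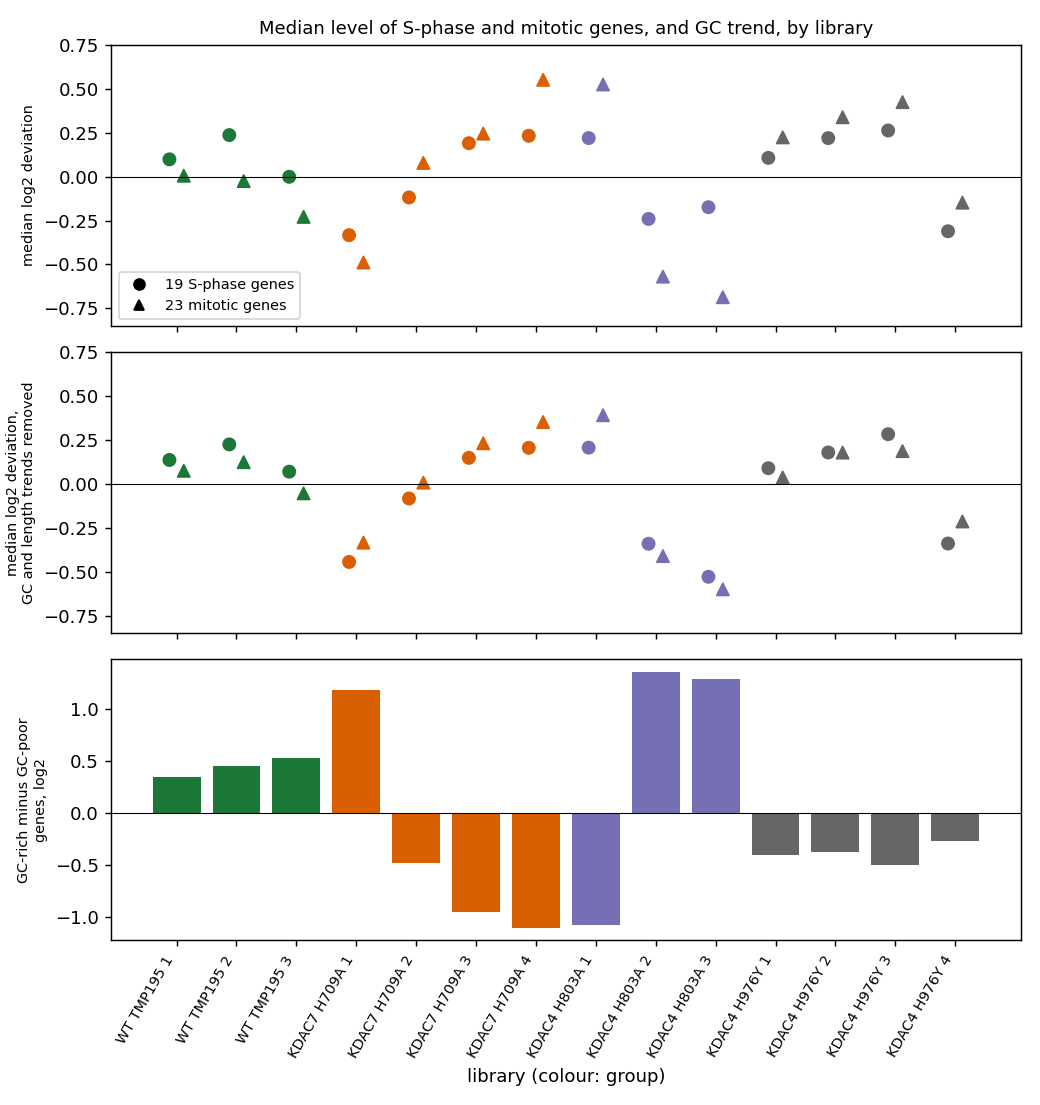
Median log2 deviation of the 19 S-phase genes (circles) and 23 mitotic genes (triangles) in each library, as counted (top) and after GC and length trends were taken out (middle), with the difference between GC-rich and GC-poor genes of all tested genes below (bars). As counted, the mitotic medians are lowest in KDAC7 H709A 1 (-0.49) and KDAC4 H803A 2 and 3 (-0.57 and -0.69), and the S-phase medians there are also below 0; the bars run from -1.11 to 1.36.

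With all 14 libraries as labelled, few of the 42 genes were called between groups, at an adjusted p under 0.05 (edgeR quasi-likelihood test, Benjamini-Hochberg over 17780 genes). WT TMP195 against KDAC4 H976Y had 6, with 4 higher and 2 lower, where 16.5% of all genes were called, 7.96% higher and 8.55% lower. KDAC4 H803A against KDAC4 H976Y had 3, all higher, where 15.1% of all genes were called, 9.21% higher. KDAC7 H709A against KDAC4 H976Y had 1, where 12.5% of all genes were called, and WT TMP195 against KDAC7 H709A had 1, where 6.29% of all genes were called. WT TMP195 against KDAC4 H803A had 0, where 5.34% of all genes were called. By edgeR 6 of 42 members, and 3298 of all 17780 genes, had an unadjusted p under 0.05. DESeq2 called 2 members and 8.39% of all genes, and limma-voom 0 members and 5.17%. KDAC7 H709A against KDAC4 H803A had 0, where 0% of all genes were called. There 0 of 42 members, and 1118 of all 17780 genes, had an unadjusted p under 0.05 by edgeR. DESeq2 called 0 members and 0.425% of all genes, and limma-voom 0 members and 0%. A test of any difference among the 4 groups called 3, MCM3, CDT1 and CDC25B, where 19.6% of all genes were called. Both directions together, these counts were no larger a share of the 42 genes than of all genes (14.3% in WT TMP195 against KDAC4 H976Y); the 4 genes higher in that comparison were 9.52% of the 42. The comparisons share libraries: each of the 3 with KDAC4 H976Y uses the same 4.

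Among the helicase loading genes, MCM3 and CDT1 were called, both at their lowest in KDAC4 H976Y. MCM3, a subunit of the replicative helicase, had 186, 202 and 179 CPM in WT TMP195 libraries 1 to 3, 141, 132, 131 and 126 CPM in KDAC7 H709A 1 to 4, 124, 179.9 and 174 CPM in KDAC4 H803A 1 to 3 and 95.6, 102, 109 and 83.4 CPM in KDAC4 H976Y 1 to 4. All 4 KDAC4 H976Y libraries lay below the 10 others, and the WT TMP195 libraries lay above all KDAC7 H709A libraries but overlapped with KDAC4 H803A. Its log2 fold change was 0.96 ± 0.16 (SE, adjusted p = 0.00201) for WT TMP195 over KDAC4 H976Y and 0.71 ± 0.16 (SE, adjusted p = 0.0136) for KDAC4 H803A over KDAC4 H976Y. The call against WT TMP195 was kept in all 28 alternative analyses, at 0.83 to 1.07, and with GC and length offsets it was 0.85 ± 0.12 (SE, adjusted p = 0.000311), where 22.1% of all genes were called. The call for KDAC4 H803A over KDAC4 H976Y ended without KDAC4 H803A 2 or 3 (adjusted p = 0.0673 and 0.0605); without KDAC4 H803A 1 and KDAC7 H709A 1 the value was 0.82 ± 0.13 (SE, adjusted p = 8.74e-05). Over all tested genes of chromosome 6, where MCM3 lies, the median log2 fold change was 0.14 for WT TMP195 over KDAC4 H976Y and 0.00 for KDAC4 H803A over KDAC4 H976Y.

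CDT1, which brings the helicase to origins, had 58.4, 72.9 and 55.0 CPM in WT TMP195, 58.4, 54.8, 55.6 and 42.3 CPM in KDAC7 H709A, 45.7, 77.6 and 68.3 CPM in KDAC4 H803A and 36.6, 37.2, 37.4 and 30.3 CPM in KDAC4 H976Y libraries. The 4 KDAC4 H976Y libraries were again below all others, and within KDAC4 H803A replicate 1 was lower than replicates 2 and 3. The fold changes were 0.81 ± 0.20 (SE, adjusted p = 0.0166) for WT TMP195 and 0.85 ± 0.20 (SE, adjusted p = 0.0155) for KDAC4 H803A, each over KDAC4 H976Y. Both calls ended with GC and length offsets, at 0.54 ± 0.32 (SE, adjusted p = 0.237) and 0.21 ± 0.32 (SE, adjusted p = 0.662); CDT1 has the highest GC content of the S-phase genes. The call against WT TMP195 also ended without WT TMP195 2 (adjusted p = 0.0921), and that for KDAC4 H803A without KDAC4 H803A 2 or 3 (0.0793 and 0.0589). Without KDAC4 H803A 1 and KDAC7 H709A 1 the value for KDAC4 H803A was 1.00 ± 0.16 (SE, adjusted p = 9.50e-05), and with GC and length offsets too -0.30 ± 0.15 (SE, adjusted p = 0.109). The chromosome 16 median over all tested genes was 0.28 for WT TMP195 over KDAC4 H976Y and 0.43 for KDAC4 H803A over KDAC4 H976Y.

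The other helicase subunits did not pass the test in any comparison. MCM2 had 228, 237 and 203 CPM in WT TMP195, 139, 164, 184 and 161 CPM in KDAC7 H709A, 162, 182 and 161 CPM in KDAC4 H803A and 194, 213, 222 and 133 CPM in KDAC4 H976Y libraries. The WT TMP195 values were above all KDAC7 H709A and KDAC4 H803A values and overlapped those of KDAC4 H976Y, and the fold change over KDAC7 H709A was 0.46 ± 0.19 (SE, adjusted p = 0.158). MCM7 averaged 337 ± 17.9 CPM in WT TMP195, 222 ± 26.1 in KDAC7 H709A, 242 ± 53.2 in KDAC4 H803A and 265 ± 48.8 in KDAC4 H976Y (SD, n = 3, 4, 3 and 4), with WT TMP195 over KDAC7 H709A at 0.60 ± 0.20 (SE, adjusted p = 0.092). MCM6 split within a group, at 85.2, 41.6 and 34.2 CPM in KDAC4 H803A 1 to 3, with a mean of 53.7 ± 27.6 (SD, n = 3).

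E2F1, the transcription factor that drives many of these genes and is itself an E2F target, was highest in WT TMP195. It had 39.6, 50.4 and 51.0 CPM there, 33.5, 28.2, 26.5 and 20.9 CPM in KDAC7 H709A, 20.7, 36.6 and 34.3 CPM in KDAC4 H803A and 26.0, 32.1, 32.3 and 25.5 CPM in KDAC4 H976Y libraries. The 3 WT TMP195 libraries lay above the 11 others, yet no comparison passed the test: the fold changes were 0.79 ± 0.22 (SE, adjusted p = 0.055) over KDAC7 H709A, 0.62 ± 0.24 (SE, adjusted p = 0.179) over KDAC4 H803A and 0.69 ± 0.23 (SE, adjusted p = 0.0508) over KDAC4 H976Y. With GC and length offsets WT TMP195 over KDAC4 H803A was 0.89 ± 0.24 (SE, adjusted p = 0.0382), a call, where 7.9% of all genes were called, and the other comparisons were not called.

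Cyclin E and the precursor and clamp genes were not called in any comparison. CCNE1 had 4.06, 4.15 and 4.61 CPM in WT TMP195, 5.89, 3.56, 5.38 and 8.01 CPM in KDAC7 H709A, 8.74, 4.17 and 5.70 CPM in KDAC4 H803A and 6.48, 8.08, 7.90 and 5.56 CPM in KDAC4 H976Y libraries. WT TMP195 lay below all KDAC4 H976Y libraries and overlapped with both other groups, with a fold change of -0.72 ± 0.32 (SE, adjusted p = 0.139) over KDAC4 H976Y. PCNA, the sliding clamp of DNA polymerases, had 92.8, 90.9 and 68.3 CPM in WT TMP195, 55.7, 128, 154 and 131 CPM in KDAC7 H709A, 129, 67.0 and 52.1 CPM in KDAC4 H803A and 158, 169, 177 and 90.6 CPM in KDAC4 H976Y libraries. Its lowest values were those of KDAC7 H709A 1 and KDAC4 H803A 3, and its largest fold change among the 6 comparisons was -0.84 ± 0.38 (SE, adjusted p = 0.134) for KDAC4 H803A over KDAC4 H976Y. RRM1 and RRM2, the subunits of ribonucleotide reductase, and TYMS, which makes thymidylate and whose counts may include reads of the overlapping gene ENOSF1, had fold changes between -0.65 and 0.38 in the 6 comparisons.

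Among the mitotic genes, 4 were called in WT TMP195 against KDAC4 H976Y, 2 in each direction. CDC25B, a phosphatase that activates CDK1 at mitotic entry, had 175, 189.7 and 157 CPM in WT TMP195, 161, 109, 110.1 and 118 CPM in KDAC7 H709A, 115, 130.3 and 112 CPM in KDAC4 H803A and 88.4, 98.8, 90.6 and 77.9 CPM in KDAC4 H976Y libraries. KDAC4 H976Y lay below every other library, and WT TMP195 overlapped only with KDAC7 H709A 1. Its fold change over KDAC4 H976Y was 0.97 ± 0.17 (SE, adjusted p = 0.00264), and the call was kept in 27 of 28 alternatives, 0.83 ± 0.23 (SE, adjusted p = 0.0227) with GC and length offsets.

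PLK1, the kinase that drives mitotic entry and spindle assembly, was lowest in KDAC4 H976Y. It had 150.2, 165 and 129.7 CPM in WT TMP195, 123, 154, 152 and 149 CPM in KDAC7 H709A, 148, 135 and 131 CPM in KDAC4 H803A and 101, 116, 108 and 84.9 CPM in KDAC4 H976Y libraries. KDAC4 H976Y did not overlap with any other group. The fold changes over KDAC4 H976Y were 0.54 ± 0.16 (SE, adjusted p = 0.037) for WT TMP195, 0.50 ± 0.15 (SE, adjusted p = 0.0439) for KDAC7 H709A and, without a call, 0.43 ± 0.16 (SE, adjusted p = 0.0836) for KDAC4 H803A. The first call was kept in 14 and the second in 11 of 28 alternatives; both ended with GC and length offsets, at 0.39 ± 0.28 (SE, adjusted p = 0.338) and 0.59 ± 0.26 (SE, adjusted p = 0.135), and both ended when any 1 of the WT TMP195 or KDAC4 H976Y libraries, KDAC7 H709A 2, or KDAC4 H803A 2 or 3 was left out (adjusted p = 0.0503 to 0.177 for WT TMP195). The second ended without KDAC7 H709A 3 or 4 too (0.0592 to 0.125 over the libraries that end it), and without KDAC4 H803A 1 and KDAC7 H709A 1 together it was 0.59 ± 0.13 (SE, adjusted p = 0.00269).

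CENPE and CENPF, proteins of the outer kinetochore that link chromosomes to spindle microtubules, were lowest in WT TMP195. CENPE had 51.2, 45.2 and 48.4 CPM in WT TMP195, 125, 93.9, 101 and 269 CPM in KDAC7 H709A, 265, 74.7 and 96.0 CPM in KDAC4 H803A and 143, 140.2, 144 and 143 CPM in KDAC4 H976Y libraries. The 3 WT TMP195 libraries were below all 11 others, while KDAC7 H709A 4 and KDAC4 H803A 1 were the highest of all, above the other libraries of their groups. Its fold change was -1.61 ± 0.44 (SE, adjusted p = 0.0452) over KDAC7 H709A, -1.56 ± 0.44 (SE, adjusted p = 0.0278) over KDAC4 H976Y and, without a call, -1.59 ± 0.46 (SE, adjusted p = 0.0638) over KDAC4 H803A. With GC and length offsets it was -0.75 ± 0.32 (SE, adjusted p = 0.19), -0.80 ± 0.32 (SE, adjusted p = 0.0938) and -1.06 ± 0.34 (SE, adjusted p = 0.0795) in the same order, and no comparison was called; CENPE has the lowest GC content of the mitotic genes. Leaving out any 1 WT TMP195 library, or KDAC4 H976Y 1, 2 or 3, also ended both calls, and that over KDAC7 H709A ended without KDAC7 H709A 3 or 4 or KDAC4 H976Y 4 too (adjusted p = 0.0502 to 0.179). Without KDAC4 H803A 1 and KDAC7 H709A 1 the fold change was -1.74 ± 0.31 (SE, adjusted p = 0.000554) over KDAC7 H709A, -0.81 ± 0.34 (SE, adjusted p = 0.068) over KDAC4 H803A and -1.59 ± 0.30 (SE, adjusted p = 0.000732) over KDAC4 H976Y.

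CENPF had 278, 263 and 269 CPM in WT TMP195, 373, 434, 390.4 and 608 CPM in KDAC7 H709A, 595, 349 and 344 CPM in KDAC4 H803A and 513, 507, 484 and 486 CPM in KDAC4 H976Y libraries. WT TMP195 was below all others here too. The fold change was -0.88 ± 0.23 (SE, adjusted p = 0.0191) over KDAC4 H976Y, a call, and -0.74 ± 0.23 (SE, adjusted p = 0.0705) and -0.67 ± 0.24 (SE, adjusted p = 0.138) over KDAC7 H709A and KDAC4 H803A, no calls. With GC and length offsets the called value was -0.45 ± 0.16 (SE, adjusted p = 0.0632), and leaving out any 1 WT TMP195 library or KDAC4 H976Y 1 or 2 ended the call (adjusted p = 0.0509 to 0.0861).

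MKI67, whose product coats mitotic chromosomes and marks cycling cells, was called in KDAC4 H803A against KDAC4 H976Y alone. It had 561, 526 and 491 CPM in WT TMP195, 625, 554, 520.5 and 925 CPM in KDAC7 H709A, 872, 571 and 672 CPM in KDAC4 H803A and 420.1, 439, 423 and 461 CPM in KDAC4 H976Y libraries. KDAC4 H976Y lay below all other libraries. The fold change was 0.69 ± 0.21 (SE, adjusted p = 0.044) for KDAC4 H803A over KDAC4 H976Y, and 0.48 ± 0.20 (SE, adjusted p = 0.0574) without KDAC4 H803A 1 and KDAC7 H709A 1. The call ended when any 1 WT TMP195, KDAC4 H803A or KDAC4 H976Y library or KDAC7 H709A 2 was left out (adjusted p = 0.0532 to 0.122). The difference between the fold changes of the 3 groups over KDAC4 H976Y was not tested.

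CCNB1 and CDK1, cyclin B1 and its kinase, were not called, and their libraries split within groups. CCNB1 had 114, 115 and 97.3 CPM in WT TMP195, 52.8, 107, 140.4 and 101 CPM in KDAC7 H709A, 102, 54.6 and 44.5 CPM in KDAC4 H803A and 137, 156, 170.3 and 90.4 CPM in KDAC4 H976Y libraries. CDK1 had 31.1, 25.7 and 25.0 CPM in WT TMP195, 17.5, 49.3, 83.0 and 62.9 CPM in KDAC7 H709A, 59.2, 14.7 and 15.9 CPM in KDAC4 H803A and 61.8, 73.5, 82.1 and 44.7 CPM in KDAC4 H976Y libraries. For both genes KDAC7 H709A 1 lay with KDAC4 H803A 2 and 3, and KDAC4 H803A 1 lay within the range of KDAC7 H709A 2 to 4. The fold changes for KDAC4 H803A over KDAC4 H976Y were -1.04 ± 0.35 (SE, adjusted p = 0.0597) for CCNB1 and -1.13 ± 0.53 (SE, adjusted p = 0.15) for CDK1.

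**Figure D3:**
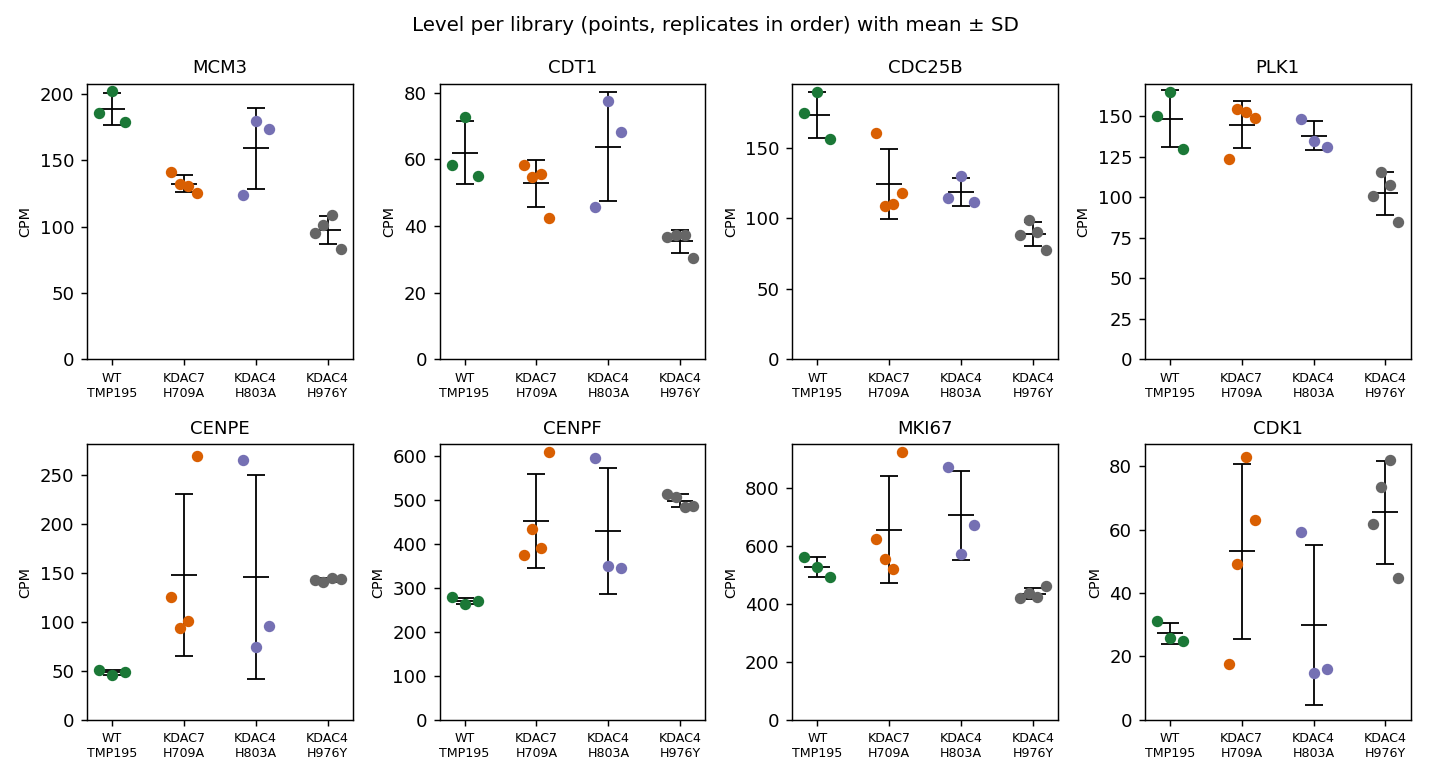
CPM per library (points, replicates in order within each group) with the group's mean ± SD for the 7 genes called in a pairwise comparison and CDK1. MCM3, CDT1, CDC25B, PLK1 and MKI67 are lowest in KDAC4 H976Y, CENPE and CENPF in WT TMP195, and CDK1 splits within KDAC7 H709A (17.5 to 83.0 CPM) and KDAC4 H803A (14.7 to 59.2 CPM).

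With all libraries as labelled, the lists were set against all genes by their medians. The median log2 fold change of S-phase and mitotic genes was 0.09 and -0.32 for WT TMP195 over KDAC7 H709A, against -0.07 over all tested genes. It was 0.19 and 0.05, against -0.11 over all genes, for WT TMP195 over KDAC4 H803A, and 0.09 and -0.31, against 0.03, for WT TMP195 over KDAC4 H976Y. For KDAC7 H709A over KDAC4 H803A it was 0.07 and 0.26, against 0.02. Over KDAC4 H976Y it was -0.13 and 0.02 for KDAC7 H709A, against 0.09, and -0.18 and -0.28 for KDAC4 H803A, against 0.09. With GC and length offsets the mitotic medians of WT TMP195 over KDAC7 H709A and over KDAC4 H976Y were -0.02 and 0.00. Those over all tested genes were 0.06 and 0.11, so the mitotic medians still lay below them. Without KDAC4 H803A 1 and KDAC7 H709A 1 the S-phase and mitotic medians were -0.03 and -0.39 for WT TMP195 over KDAC7 H709A, 0.39 and 0.68 for WT TMP195 over KDAC4 H803A, and 0.06 and -0.34 for WT TMP195 over KDAC4 H976Y. They were 0.30 and 0.93 for KDAC7 H709A over KDAC4 H803A, -0.03 and 0.15 for KDAC7 H709A over KDAC4 H976Y, and -0.37 and -0.88 for KDAC4 H803A over KDAC4 H976Y, with medians over all tested genes of 0.00 to 0.04 in size.

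Without KDAC4 H803A 1 and KDAC7 H709A 1, a choice made after the values were seen, far more genes were called, among the members and among all genes. The libraries were left out for their profiles over the members, so the counts describe the 12 libraries that remain and are no independent test. KDAC7 H709A against KDAC4 H803A then called 32 of 42 members, 28 higher and 4 lower, where 61.6% of all genes were called, 31.9% higher and 29.7% lower. Of these, 9 S-phase genes were higher and 3 lower, and 19 mitotic genes were higher and 1 lower. With GC and length offsets as well the count was 27, with 26 higher and 1 lower, where 48.5% of all genes were called, 27.2% higher and 21.3% lower. In both fits 20 genes were called higher and 0 lower, among them PCNA, MCM4, RRM1, RRM2, TYMS and GINS2 of the S-phase genes. The share of all genes called alike in both fits was not counted, here or in the comparisons below. Both fits use the same 12 libraries.

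The largest differences were in mitotic genes. CDK1 was 2.15 ± 0.27 (SE, adjusted p = 1.72e-05) for KDAC7 H709A over KDAC4 H803A without the 2 libraries, and 0.91 ± 0.22 (SE, adjusted p = 0.00425) with GC and length offsets too. MAD2L1, a spindle checkpoint protein, was 2.03 ± 0.25 (SE, adjusted p = 1.33e-05), CCNA2, cyclin A2, 1.86 ± 0.24 (SE, adjusted p = 2.20e-05) and AURKA, the centrosomal Aurora kinase, 1.77 ± 0.21 (SE, adjusted p = 1.02e-05). AURKA had 36.4, 56.1, 70.4 and 71.7 CPM in KDAC7 H709A 1 to 4. It had 69.3, 19.7 and 20.7 CPM in KDAC4 H803A 1 to 3. Without the libraries labelled KDAC7 H709A 1 and KDAC4 H803A 1 the groups did not overlap. Both libraries were left out for their profiles over the members, AURKA among them, so the lack of overlap is no independent test. The share of all genes without overlap was not counted. RRM2 was 1.34 ± 0.27 (SE, adjusted p = 0.000674) and PCNA 1.27 ± 0.25 (SE, adjusted p = 0.000692). The 4 genes that were lower were MCM3, CDT1, E2F1 and AURKB. Their values changed when GC and length offsets were added: CDT1 was 1.07 ± 0.16 (SE, adjusted p = 0.000206) and E2F1 0.83 ± 0.14 (SE, adjusted p = 0.000546), both called higher, while MCM3 was -0.11 ± 0.11 (SE, adjusted p = 0.457) and AURKB 0.25 ± 0.15 (SE, adjusted p = 0.173), not called. KDAC4 H803A then had 2 libraries.

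**Figure D4:**
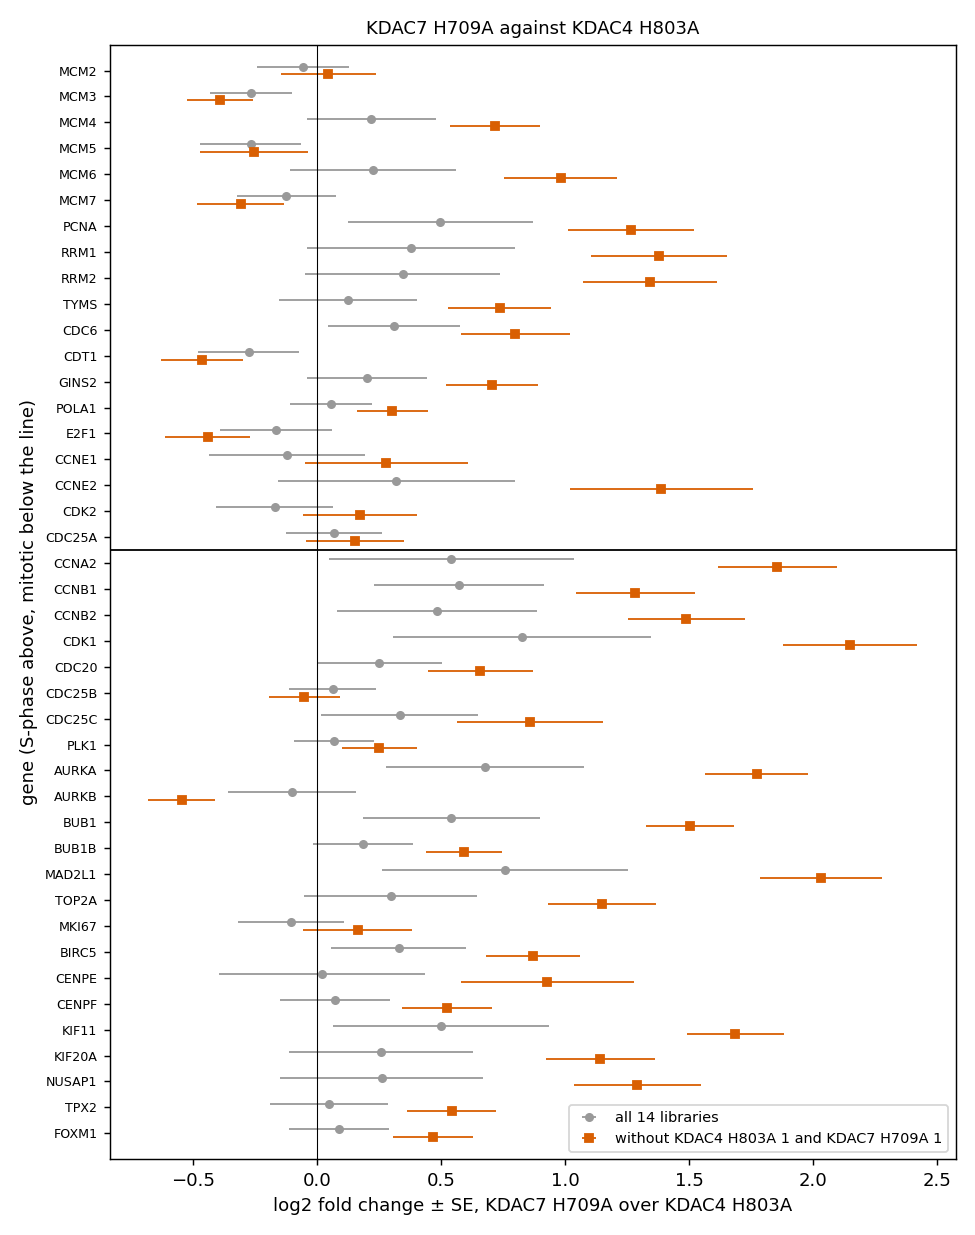
Log2 fold change ± SE of each gene for KDAC7 H709A over KDAC4 H803A from all 14 libraries (grey circles) and without KDAC4 H803A 1 and KDAC7 H709A 1 (orange squares), S-phase genes above the line. With all libraries 0 of the 42 are called, as are 0% of all genes. Without the 2 libraries 32 of 42 are, where 61.6% of all genes are called, and CDK1, at 2.15, is the highest.

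The other comparisons with KDAC4 H803A also gained calls. Without the 2 libraries KDAC4 H803A against KDAC4 H976Y called 28 members, 4 higher and 24 lower, where 60.6% of all genes were called, 30.0% higher and 30.6% lower. With GC and length offsets too it called 23, 2 higher and 21 lower, where 51.9% of all genes were called, 24.6% higher and 27.3% lower. In both fits 17 genes were lower, CDK1 by -2.14 ± 0.26 (SE, adjusted p = 1.56e-05) and AURKA by -1.95 ± 0.20 (SE, adjusted p = 4.88e-06), and 1 was higher, MCM3. WT TMP195 against KDAC4 H803A called 18 members, all higher, where 41.6% of all genes were called, 20.1% higher. Of these 18 members, 15 were also called higher with GC and length offsets, where 37.8% of all genes were called. Among the 15 were AURKA, at 1.59 ± 0.21 (SE, adjusted p = 7.62e-05), and CCNB2, cyclin B2, at 1.27 ± 0.23 (SE, adjusted p = 0.000934). Leaving out KDAC4 H803A 1 alone gave 25 members in KDAC4 H803A against KDAC4 H976Y, where 45.3% of all genes were called. It gave 5 in WT TMP195 against KDAC4 H803A, where 14.5% of all genes were called.

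The comparisons that do not involve KDAC4 H803A gained calls too. WT TMP195 against KDAC7 H709A called 19 members, 5 higher and 14 lower, where 47.6% of all genes were called, 20.8% higher and 26.8% lower, and with GC and length offsets 7, where 29.5% of all genes were called. In both fits 4 genes were called alike, MCM3 and E2F1 higher and CCNA2 and BIRC5, the survivin subunit of the passenger complex, lower. WT TMP195 against KDAC4 H976Y called 19 members, 7 higher and 12 lower, where 48.3% of all genes were called, 22.1% higher and 26.2% lower. Of these, 12 were called alike with GC and length offsets, where 43.4% of all genes were called, 6 in each direction, and the 6 genes called with all libraries were among them. KDAC7 H709A against KDAC4 H976Y called 8, all higher, where 33.9% of all genes were called, 18.5% higher. Of the 8, 7 were called alike with GC and length offsets, where 32.6% of all genes were called, among them PLK1, CDC25B and FOXM1, the factor that drives mitotic genes.

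**Figure D5:**
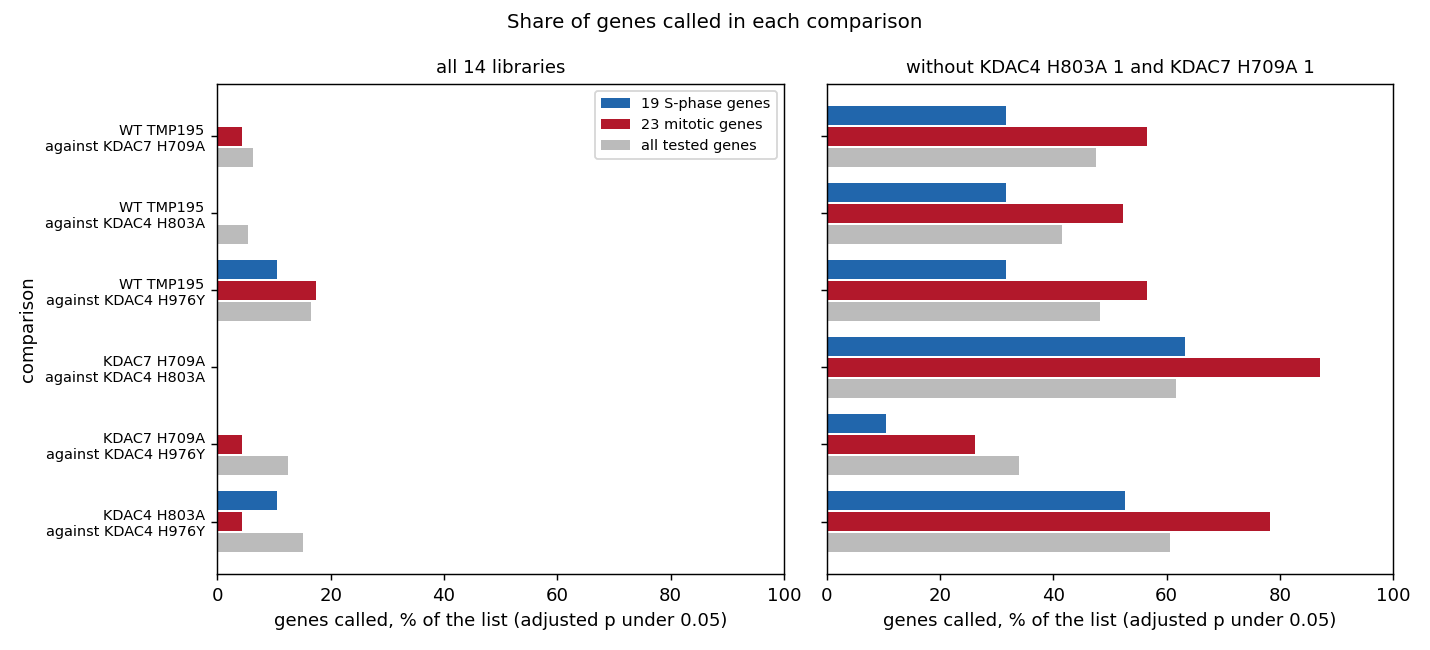
Share of the 19 S-phase genes, the 23 mitotic genes and all tested genes called at an adjusted p under 0.05 in each comparison, with all 14 libraries (left) and without KDAC4 H803A 1 and KDAC7 H709A 1 (right). The grey bars of all genes reach at most 16.5% on the left and 61.6% on the right, where the S-phase and mitotic bars of KDAC7 H709A against KDAC4 H803A reach 63.2% and 87.0%.

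Other genes of the same pathways were looked at with all libraries. In KDAC4 H803A against KDAC4 H976Y 15.1% of all genes were called, 9.21% higher and 5.85% lower. Of 41 other replication genes, 6 (14.6%) were called there, 1 higher and 5 lower. They were POLE, the leading-strand polymerase, at a log2 fold change of 1.24 ± 0.37 (SE, adjusted p = 0.0382), and, lower, RPA3, a subunit of the single-strand binding protein, at -1.71 ± 0.43 (SE, adjusted p = 0.0201), RFC2, a clamp loader subunit, at -0.75 ± 0.21 (SE, adjusted p = 0.0304), and RFC5, RPA2 and ORC1. WT TMP195 against KDAC4 H976Y called 4 of 41 (9.76%), against 16.5% of all genes, 7.96% higher and 8.55% lower. ORC6 was higher at 1.31 ± 0.20 (SE, adjusted p = 0.000927), and ORC4, POLE2 and DNA2 were lower. ORC6 and ORC4 are subunits of the origin recognition complex. ORC4 averaged 40.2 ± 6.38 CPM in WT TMP195, 137 ± 43.3 in KDAC7 H709A, 96.3 ± 50.3 in KDAC4 H803A and 99.2 ± 16.8 in KDAC4 H976Y (SD, n = 3, 4, 3 and 4), and it was also lower in WT TMP195 than in KDAC7 H709A, at -1.77 ± 0.35 (SE, adjusted p = 0.00839). ORC6 averaged 87.2 ± 9.49 CPM in WT TMP195, 65.7 ± 9.96 in KDAC7 H709A, 53.0 ± 15.8 in KDAC4 H803A and 35.1 ± 1.03 in KDAC4 H976Y, and was higher in KDAC7 H709A cells, against KDAC4 H976Y, at 0.91 ± 0.19 (SE, adjusted p = 0.00703).

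Of 37 other mitotic genes, 3 (8.11%) were called in WT TMP195 against KDAC4 H976Y, where 16.5% of all genes were. CDCA8, a passenger complex subunit, was higher at 0.67 ± 0.20 (SE, adjusted p = 0.0339), and HMMR, a spindle protein, and NCAPG, a condensin subunit, were lower at -1.43 ± 0.42 (SE, adjusted p = 0.0333) and -1.27 ± 0.39 (SE, adjusted p = 0.0402). CDCA8 was also the 1 of 37 (2.7%, against 5.34% of all genes) called in WT TMP195 against KDAC4 H803A, at 0.80 ± 0.21 (SE, adjusted p = 0.0453). In KDAC7 H709A against KDAC4 H976Y 2 of 37 (5.41%) were called, both lower, against 12.5% of all genes called and 5.19% called lower. The 2 were CKS2 and SPC24, a kinetochore subunit, the second at -0.54 ± 0.15 (SE, adjusted p = 0.0335). CKS2, a partner of cyclin-dependent kinases, was lower in KDAC7 H709A and in KDAC4 H803A than in KDAC4 H976Y, at -1.81 ± 0.45 (SE, adjusted p = 0.019) and -2.37 ± 0.51 (SE, adjusted p = 0.00963); over all tested genes of its chromosome 9 the medians ran the other way, 0.44 and 0.49.

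Of 18 regulators of the RB, E2F and DREAM system, 2 (11.1%) were called in KDAC4 H803A and 2 (11.1%) in KDAC7 H709A, each against KDAC4 H976Y, where 15.1% and 12.5% of all genes were. MYBL2, a partner of FOXM1 in mitotic transcription, was higher in KDAC4 H803A cells, against KDAC4 H976Y, at 1.18 ± 0.26 (SE, adjusted p = 0.0104). TFDP1, the dimer partner of E2F factors, was higher than in KDAC4 H976Y in WT TMP195, at 0.78 ± 0.21 (SE, adjusted p = 0.0236), and in KDAC7 H709A, at 0.95 ± 0.20 (SE, adjusted p = 0.00689); it lies on chromosome 13, whose tested genes had medians of 0.69 and 1.00 in these comparisons. E2F6, a repressive member of the family, was lower in KDAC7 H709A and KDAC4 H803A than in KDAC4 H976Y, at -0.74 ± 0.22 (SE, adjusted p = 0.0447) and -0.85 ± 0.25 (SE, adjusted p = 0.0355). Among 20 ubiquitin ligase and checkpoint genes, only WEE1 and CDC16 were called in KDAC7 H709A against KDAC4 H976Y, where 12.5% of all genes were. In KDAC4 H803A against KDAC4 H976Y WEE1 alone was called, where 15.1% of all genes were. WEE1, the kinase that holds CDK1 inactive and so opposes CDC25B, was higher in both of these groups. Its values were 0.84 ± 0.15 (SE, adjusted p = 0.00315) and 0.68 ± 0.16 (SE, adjusted p = 0.0153). CDC16, a subunit of the anaphase-promoting complex on chromosome 13, was higher in KDAC7 H709A cells, against KDAC4 H976Y, at 0.83 ± 0.22 (SE, adjusted p = 0.0243). ANAPC4, another subunit, was lower in WT TMP195 than in KDAC4 H976Y at -0.68 ± 0.20 (SE, adjusted p = 0.0365). It was the only gene of this list called in that comparison, where 16.5% of all genes were. WEE1 averaged 61.7 ± 3.50 CPM in WT TMP195, 84.4 ± 9.90 in KDAC7 H709A, 75.6 ± 11.5 in KDAC4 H803A and 47.2 ± 4.17 in KDAC4 H976Y (SD, n = 3, 4, 3 and 4).

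Without KDAC4 H803A 1 and KDAC7 H709A 1, all 29 pairwise calls among these other genes were made again in the same direction. With GC and length offsets as well, 27 of the 29 were. Of all genes, 33.9 to 60.6% were called in these comparisons without the 2 libraries, and 29.5 to 51.9% with offsets too. The 29 calls had been made with the remaining libraries included, so making them again is no independent test. POLE was then 1.54 ± 0.13 (SE, adjusted p = 1.02e-06) for KDAC4 H803A over KDAC4 H976Y, where KDAC4 H803A 1 had 116.5 CPM against 269.9 and 335 CPM in KDAC4 H803A 2 and 3. CKS2 was -1.50 ± 0.18 (SE, adjusted p = 4.16e-05) for KDAC7 H709A and -3.27 ± 0.24 (SE, adjusted p = 4.43e-07) for KDAC4 H803A, and WEE1 0.94 ± 0.10 (SE, adjusted p = 2.19e-05) and 0.52 ± 0.12 (SE, adjusted p = 0.00179), each over KDAC4 H976Y. ORC4 was -2.02 ± 0.16 (SE, adjusted p = 1.63e-06) for WT TMP195 over KDAC7 H709A, and HMMR -1.46 ± 0.17 (SE, adjusted p = 2.46e-05) for WT TMP195 over KDAC4 H976Y. With offsets as well, in the same comparisons and order, POLE was 0.96, CKS2 -1.33 and -2.77, and WEE1 0.67 and 1.39. ORC4 was then -1.06 and HMMR -0.65. The 2 calls that ended with offsets were DNA2, at 0.07 ± 0.12 (SE, adjusted p = 0.672), and ANAPC4, at 0.08 ± 0.14 (SE, adjusted p = 0.643), both for WT TMP195 over KDAC4 H976Y.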

How the data were processed

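HT1080 cells were pelleted and frozen, and total RNA depleted of ribosomal RNA was sequenced as paired ends, per the labels' protocols. Expected counts for each gene were deposited by the authors in 1 table. The submitters' processing notes name Trimmomatic 0.39, Bowtie2 2.4.5, RSEM 1.3.3, DESeq2 1.38.2 and GRCh38; the sources used here do not name the annotation release or the strand setting, so reads of overlapping or antisense genes may be shared. The column named for the fourth KDAC4 H803A sample holds effective gene lengths, not counts: 96.8% of 7608 single-transcript genes equalled their annotated length less 248.86 bases within 0.02, and it was used only for TPM.

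Expected counts were rounded to whole numbers. Genes kept by filterByExpr (minimum count 10, total 15) were scaled by TMM and tested in edgeR 4.0.16 (R 4.3.3) with the quasi-likelihood F test in 1 model of 4 groups and no covariates, and p-values were adjusted by Benjamini-Hochberg over all 17780 genes; calls are at 0.05. CPM (counts scaled by TMM to a common library size) were used per library, and their logs used a prior count of 2. Alternatives were other scalings, DESeq2 1.42.0, limma-voom (limma 3.58.1), other filters, spline offsets (5 degrees of freedom) for GC content and length, known for 99.2% of tested genes, a replicate block, fits of 2 groups, and fits without libraries. The fits without KDAC4 H803A 1 and KDAC7 H709A 1 together were added after the data were seen. The steps were run on simulated counts with less spread between libraries than these data (common dispersion 0.179) and no GC trend. That run therefore does not check the calls under the spread and GC trends seen here.

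The members and all other gene lists were chosen with earlier results of these data known. Values in every library are given for members called in a pairwise comparison and for a set of members named by role; from each other list, genes with the lowest adjusted p are named. E2F1, MCM7, MCM6, CDK1, AURKA, and further genes of the other lists beyond 3 in a comparison were named after their values were seen. KDAC4 H803A 1 and KDAC7 H709A 4 were kept as 2 libraries. The median over genes of their squared count difference was 1.78 times that of counting noise. For KDAC4 H976Y 1 and 2 it was 1.49, and for KDAC4 H976Y 2 and 3 it was 1.81. These values do not tell whether the 2 libraries come from separate samples, which was not tested.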

Additional observations from a re-analysis of the deposited data

Results flagged for a closer look

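In 7 (8.33%) of the 84 sets of 4 libraries that the 42 genes give in KDAC7 H709A and KDAC4 H976Y, a library stood apart. Its gap to its nearest neighbour was large against the range of the 4 (Dixon's test at 95%). For a single set chance gives about 1 in 20. The 42 genes share the same libraries, so the sets are not independent and 8.33% cannot be judged by that rate. The share over all tested genes was not counted. In KDAC4 H976Y, 5 of the 7 were low values of replicate 4, the library with the fewest counts (6151383) and the highest share of mitochondrial ribosomal RNA (31.5%); the part of either in these values was not tested. In that library CCNE2, cyclin E2, was at 7.003 CPM, against 12.53 to 13.21 CPM in the other KDAC4 H976Y libraries, and CDK2, its kinase, was at 51.08 CPM, against 74.27 to 76.69 CPM. CDT1 was at 30.28 CPM there, against 36.6 to 37.35 CPM. TOP2A, the topoisomerase that untangles sister chromatids, was at 287.9 CPM, against 399.4 to 423.8 CPM, and NUSAP1, a spindle protein, at 54.79 CPM, against 73.92 to 76.44 CPM.

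In KDAC7 H709A, PLK1 was low in replicate 1, at 123.3 CPM against 148.8 to 154.3 CPM in the other libraries of the group. FOXM1 was high in replicate 4, at 173.4 CPM against 125.6 to 128.0 CPM.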

How the results depend on the processing

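Counts of called members moved with the libraries left out and, in WT TMP195 against KDAC4 H976Y, most with only the 2 groups fitted. The share of all tested genes called moved too and is given in brackets after each count. In WT TMP195 against KDAC7 H709A the count of 1 became 4 with upper-quartile scaling (7.22% of all genes called) and 5 with DESeq2 (11.4%). It was 2 with limma-voom (7.58%) or a minimum count of 50 (7.8%), and 0 with only the 2 groups (4.86%). It was 17 without 3 libraries (KDAC4 H803A 1, KDAC7 H709A 1 and 4), where 45.7% of all genes were called. Without KDAC4 H803A 1 and KDAC7 H709A 1 it was 19 (47.6%), and 7 with GC and length offsets too (29.5%). Leaving out 1 library gave 0 to 6 (2.27 to 15.7%). In WT TMP195 against KDAC4 H803A the count of 0 became 1 with upper-quartile scaling (5.9%) or GC and length offsets (7.9%), and 2 with DESeq2 (8.39%). It was 24 without the 3 libraries (47.9%), 18 without the 2 (41.6%) and 24 without the 2 and with offsets (37.8%). Leaving out 1 library gave 0 to 5 (2.35 to 14.5%). In WT TMP195 against KDAC4 H976Y the count of 6 became 24 with only the 2 groups (58.8%) and 20 without the 3 libraries (53.9%). It was 19 without the 2 libraries (48.3%), 13 with offsets too (43.4%), and 2 to 9 without 1 library (7.08 to 27.3%). In KDAC7 H709A against KDAC4 H803A the count of 0 became 26 without the 3 libraries (60.2%), 32 without the 2 (61.6%) and 27 with offsets too (48.5%). Leaving out 1 library gave 0 to 12 (0 to 25.7%), 12 being without KDAC4 H803A 1. In KDAC7 H709A against KDAC4 H976Y the count of 1 became 5 with DESeq2 (15.1%) and 0 with no filter (4.68%) or only the 2 groups (12.8%). It was 2 with a minimum count of 50 (16.1%) or offsets (18.8%). It was 4 without the 3 libraries (31.8%), 8 without the 2 (33.9%) and 8 with offsets too (32.6%). Leaving out 1 library gave 0 to 5 (6.85 to 18.5%). In KDAC4 H803A against KDAC4 H976Y the count of 3 became 5 with upper-quartile scaling (16.1%), DESeq2 (20.6%) or a minimum count of 50 (20.4%). It was 1 with no filter (5.65%) or only the 2 groups (10.7%). It was 31 without the 3 libraries (64.5%), 28 without the 2 (60.6%) and 23 with offsets too (51.9%). Leaving out 1 library gave 0 to 25 (6.15 to 45.3%). For any difference between the groups the count of 3 became 5 with RLE scaling (20.2%) or limma-voom (17.2%). Upper-quartile scaling gave 6 (21.3%), DESeq2 8 (28.5%) and a minimum count of 50 also 8 (24%). Without the 3 libraries the count was 35 (82.4%), without the 2 also 35 (80.8%), and 30 with offsets too (74%). With 1 library left out it was 1 to 23 (11.5 to 55.3%). The highest count without 1 library came without KDAC4 H803A 1 for any difference and in 4 of the 6 pairwise comparisons, without KDAC7 H709A 1 in WT TMP195 against KDAC7 H709A, and without either in WT TMP195 against KDAC4 H976Y. The cause of these moves was not tested. Upper-quartile scaling moved the median log2 fold change of all genes to 0.03 (TMM, -0.07) for WT TMP195 over KDAC7 H709A and to 0.14 (TMM, 0.03) for WT TMP195 over KDAC4 H976Y. CDT1 reversed in KDAC4 H803A over KDAC4 H976Y without the 2 libraries and with offsets, at -0.30 (adjusted p = 0.109).

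The replicate number was also used as a block, alone and with GC and length offsets. The members called were then 0 and 0 in WT TMP195 against KDAC7 H709A (2.55% and 3.73% of all genes). They were 3 and 1 in WT TMP195 against KDAC4 H976Y (8.75% and 14.6%). They were 0 and 2 in KDAC7 H709A against KDAC4 H976Y (7.44% and 12.5%), and 1 and 1 in KDAC4 H803A against KDAC4 H976Y (6.92% and 12.7%). For any difference, with offsets, 1 was called (16.3%). The numbers do not pair the libraries: deviations of same-numbered libraries correlated at -0.687 to 0.358 over 19 pairs, those of other pairs at -0.672 to 0.753 over 54, and 3 of 14 libraries correlated best with their own number.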
